A study of Mus musculus with 3 samples.

Results

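The conjugating enzymes described here were the 49 gene names on the array that begin with Gst (a, k, m, o, p, t or z class), Mgst, Ugt1, Ugt2, Ugt3 or Sult, out of 31829 gene names with a probe. They comprised 21 soluble glutathione S-transferases, 3 membrane-bound glutathione S-transferases (Mgst), 13 UDP-glucuronosyltransferases and related enzymes (Ugt) and 12 sulfotransferases (Sult). Membership rested on the name alone and used no measured value. These names were carried by 70 of 39429 probes, and a gene name with several probes was represented by its brightest one.

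The study compared gene expression in hepatocytes, the liver's parenchymal cells, under a high-fat diet with and without a block of the leukocyte integrin VLA-4 and under a standard diet. Total RNA of hepatocytes, isolated by collagenase from male C57BL/6 wild-type mice after an overnight fast, was labelled with Cy3 and hybridised to single-colour arrays, 1 array per group. The anti-VLA-4 group received a blocking antibody against VLA-4 by intraperitoneal injection on a high-fat diet, and the HFD-IgG group received control IgG by the same route on the same diet. The standard-diet group was fed a standard diet, and the labels name no injection for it. Diets began at 6 weeks of age and lasted 16 weeks, so the mice were 22 weeks old, with 2 injections per week in the final 6 weeks. Whether an array held RNA of 1 mouse or of several is not stated in the labels.

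Conjugation makes fat-soluble compounds water-soluble so that bile or urine can carry them away, and the liver is its main site. Glutathione S-transferases join electrophiles to glutathione, Ugt enzymes of the endoplasmic reticulum join phenols, bilirubin, steroids and drugs to a sugar taken from a UDP-sugar, and sulfotransferases move a sulfate group from the donor PAPS to phenols, hormones and bile acids. Many of their genes lie in clusters of close copies, are expressed at high levels in hepatocytes, and are controlled by nuclear receptors and by the stress-responsive factor encoded by Nfe2l2.

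Because close copies can share probe sequence, the stretches that tell the results' main genes apart are shown first. The Gsta1 and Gsta2 probes aligned over 50 bases and 46 of these were identical. The first 30 aligned bases are given 5′ to 3′ as in the scanner files, with the bases that differ in capitals, and the substitutions, counted from the first base shown, were G13T and A30T from Gsta1 to Gsta2. The whole Gsta1 probe lies at chr9:78090411-78090470 on the plus strand and the whole Gsta2 probe at chr9:78178856-78178915 on the minus strand of build mm9.
Gsta1: ctggcctctaatGgtttgcaattataaaaA
Gsta2: ctggcctctaatTgtttgcaattataaaaT

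The Gstp1 probe and the less bright of the Gstp2 probes shared a stretch of 35 bases in which 30 were identical, and the 5 that differ are again in capitals. The file gives the Gstp1 probe a span of 816 bases at chr19:4035908-4036723 and the Gstp2 probe chr19:4040983-4041042, both on the minus strand.
Gstp1: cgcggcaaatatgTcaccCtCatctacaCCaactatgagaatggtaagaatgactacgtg
Gstp2: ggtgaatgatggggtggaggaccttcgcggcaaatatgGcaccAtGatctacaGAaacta

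The probes behind the largest differences in either direction between the HFD-IgG and standard-diet arrays are given whole. The Sult5a1 probe lies at chr8:125666951-125667010 on the minus strand and the Ugt1a10 probe at chr1:89952780-89952839 on the plus strand. No exon or UTR annotation of this build was used here, so the part of the transcript that a probe covers is not stated.
Sult5a1: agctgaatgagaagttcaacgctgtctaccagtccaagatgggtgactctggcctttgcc
Ugt1a10: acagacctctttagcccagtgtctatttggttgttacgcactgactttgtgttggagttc

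Levels below are processed signals divided by the array's own 75th percentile, so a level of 1 is that percentile, and differences are in log2 units. A member was compared when it was well above background, by the scanner software's own test, on at least 1 of the arrays compared. Of the 49 members, 40 were well above background on all 3 arrays, 4 on some and 5 on none, and these 5 were Gstt4, Sult1c1, Sult2a1, Sult3a1 and Sult6b1. Of all non-control spots 57.3% to 66.5% were well above background and 0 were saturated. The scanner's own error had a median of about 10.0% of a member's signal, or 0.20 on the log2 scale for a difference measured on both arrays. For dim probes and bounds it was larger, and it reached 1.47 for Sult2b1. It is the error within an array: no group had a replicate, so no difference has a replicate check, no test was made, and members are described by whether they differed by at least 2-fold.

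The labelled cell type was checked against its markers: all 12 hepatocyte markers were well above background on every array, with summed levels of 4503 on the anti-VLA-4 array, 4945 on HFD-IgG and 5035 on standard diet. Of these, 1 was at least 2-fold different in a comparison, Cps1, which was 2.20-fold lower on HFD-IgG than on standard diet. Markers of other liver cells did not stand at the same level on the arrays. The 11 measured Kupffer cell and macrophage markers summed to 43.9 on the anti-VLA-4 array, 61.3 on HFD-IgG and 9.62 on standard diet, where 2 were not well above background. All 11 were at least 2-fold higher on each high-fat-diet array than on standard diet. Of all gene names 20.4% were so on HFD-IgG and 7.99% on anti-VLA-4. The 10 sinusoidal endothelial markers summed to 36.9, 62.6 and 16.1 on the same arrays in that order, and the 10 stellate cell markers to 9.61, 19.5 and 1.77, with 8 of these 10 not well above background on standard diet. Cholangiocyte markers (14.1, 15.6 and 7.64 on the same arrays in that order) and B cell markers (0.130, 0.193 and 0.0799) followed the same order. None of the 4 B cell markers was well above background on standard diet. Sums of the remaining lists had other orders. Neutrophil and monocyte markers summed to 61.2, 70.9 and 66.8, T and NK cell markers to 17.2, 12.6 and 26.7 and erythroid markers to 15.7, 14.0 and 10.8. Between HFD-IgG and standard diet, 5 of 7 cholangiocyte markers were at least 2-fold higher and 0 lower. For neutrophil and monocyte markers 3 of 6 were higher and 0 lower, and for erythroid markers 0 of 4 were higher and 2 lower. For T and NK cell markers 2 of 4 were higher and 1 lower. The part of these other cells in the results below was not tested. In RNA of a whole preparation, fewer cells of a type and less RNA per cell cannot be told apart. The standard-diet and HFD-IgG arrays lay on 1 slide and the anti-VLA-4 array on another, so an effect of the antibody and one of the slide cannot be told apart.

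The HFD-IgG array was set against standard diet first. These groups differ in diet and in the IgG injections, and the effects of diet and injection cannot be told apart. Of the 44 members compared, 4 were at least 2-fold higher, namely the sulfotransferases Sult5a1, Sult1c2 and Sult2b1 and the glutathione S-transferase Gsta1, and 1 was at least 2-fold lower, Ugt1a10. Among all gene names compared 20.4% were called higher and 2.42% lower. Above the 75th percentile on either array, where 38 of the members stood, 4.27% of gene names were called higher and 1.93% lower. The members' median difference was -0.04, against 0.04 for all gene names. The other 39 were not called, 3 of them (Mgst2, Ugt2a1 and Gsto2) with a lower bound under 2-fold that leaves their size unknown. By family, 11 of 13 Ugt members were below 0, 6 of 8 sulfotransferases were above 0, and the soluble glutathione S-transferases were split, 10 above and 10 below. Over all gene names compared, 11672 of 21967 were above 0 and 10198 below, and above the 75th percentile 3234 of 8641 were above and 5407 below.

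**Figure D1:**
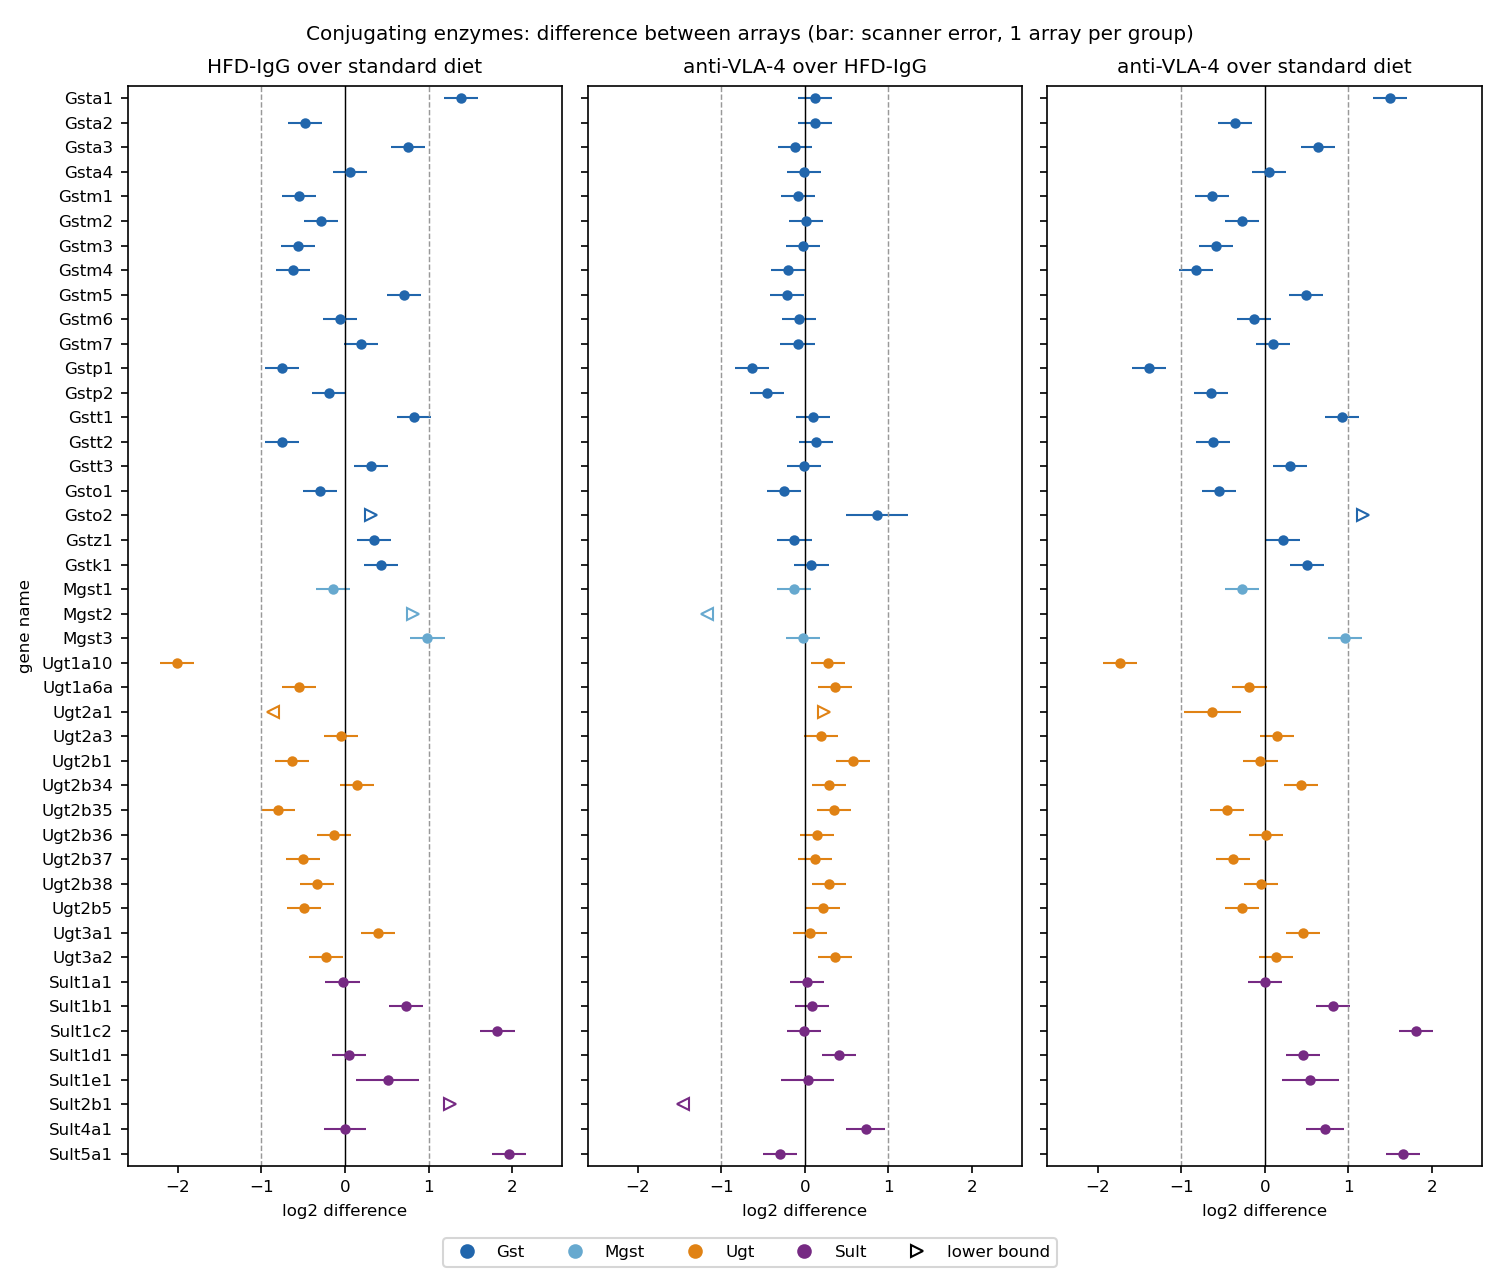
Log2 difference (horizontal axis) of each member compared (vertical axis, grouped by family and coloured by enzyme type) in each pair of arrays. Points are measured on both arrays with bars for the scanner's error, open triangles are bounds against an array not well above background, and dashed lines mark 2-fold. All 13 Ugt members lie right of 0 in the middle panel.

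Among the sulfotransferases, Sult5a1 had a level of 2.86 on the HFD-IgG array and 0.734 on standard diet, a 3.89-fold difference (1.96 on the log2 scale, scanner error 0.20). Sult1c2, of the phenol sulfotransferase subfamily, stood at 2.02 on HFD-IgG and 0.572 on standard diet, 3.54-fold higher. Both were well above background on all arrays. Sult2b1, which sulfates cholesterol and other sterols, stood well above background on HFD-IgG alone, at 0.0615, and was at least 2.39-fold higher there. That bound, 1.26 on the log2 scale, lay within its scanner error of 1.47. It was lost with quantile scaling, where it fell to 0.04 on the log2 scale, and with cyclic loess scaling.

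The other sulfotransferases differed less. Sult1b1, known for acting on thyroid hormones, had 6.58 on HFD-IgG and 3.98 on standard diet (log2 difference 0.73), and Sult1a1, the general phenol sulfotransferase, had 80.3 on HFD-IgG and 82.0 on standard diet (-0.03). Sult1e1, the oestrogen sulfotransferase, stood near the bottom of the measurable range at 0.0642 on HFD-IgG and 0.0451 on standard diet, a difference of 0.51 with a scanner error of 0.37. Sult1d1, which acts on catecholamines, differed by 0.05, and Sult4a1, known mainly from brain, had 0.117 on both. The median of the 8 sulfotransferases compared was 0.62. It was above 0 with every scaling tried but ranged down to 0.09 with quantile scaling, and was 1.37 with normexp background correction.

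**Figure D2:**
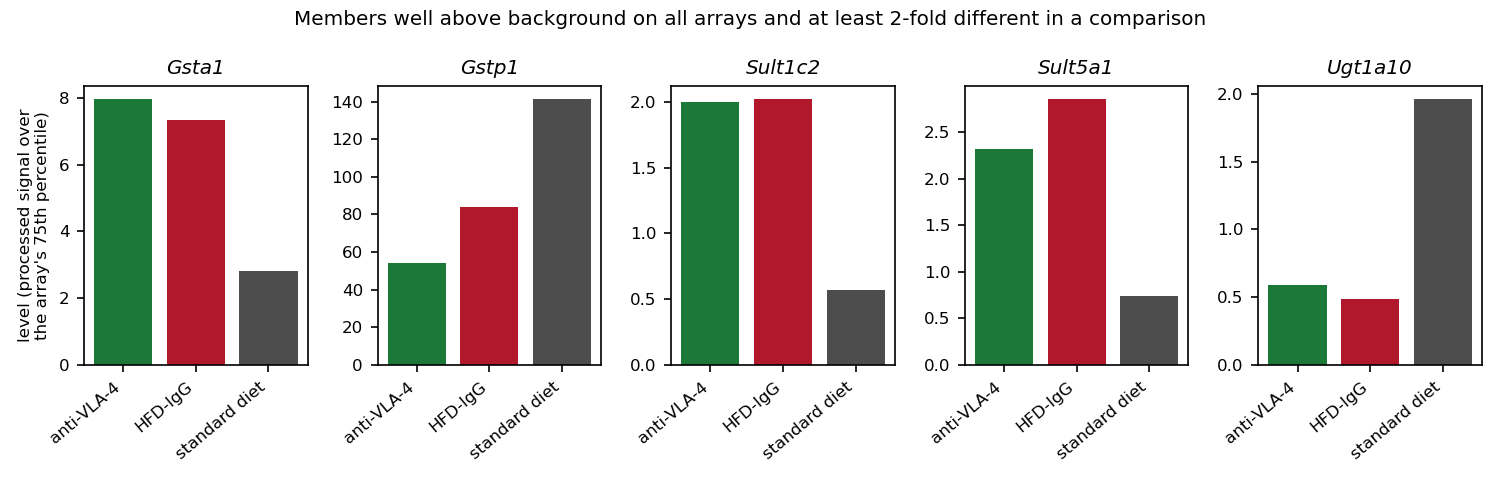
Level (vertical axes, from 0, processed signal over the array's 75th percentile) on each array of the 5 members that were well above background on all 3 arrays and at least 2-fold different in a comparison. Sult1c2, Sult5a1 and Gsta1 are high on both high-fat-diet arrays, Ugt1a10 is low on both, and Gstp1 is lowest on anti-VLA-4; bars are single arrays without replicates.

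The alpha class of glutathione S-transferases did not differ in 1 direction. Gsta1 stood at 7.33 on HFD-IgG against 2.81 on standard diet, 2.61-fold higher (log2 difference 1.38), while Gsta2, whose probe is so similar to the Gsta1 probe, had 16.6 on HFD-IgG against 23.0 on standard diet (-0.48). Gsta3 was higher by both of its probes, with 297 on HFD-IgG against 176 on standard diet for the brightest (0.75) and a difference of 0.77 for the other. Gsta4, which conjugates the lipid peroxidation product 4-hydroxynonenal, was measured by 10 spots and had 1.81 on HFD-IgG against 1.73 on standard diet (0.06). With normexp correction Gsta1 was 0.78 higher, so below 2-fold, and Gsta3 was at -0.00. How much signal the nearly alike Gsta1 and Gsta2 probes share was not tested, and they read in opposite directions between these arrays.

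In the mu class 5 of 7 members were below 0, with a median of -0.28. Gstm1, the most studied mu enzyme of rodent liver, had 110 on HFD-IgG and 161 on standard diet (-0.55). Its brightest probe is placed by the file on chromosome 5, while the gene lies on chromosome 3. Its other probe, on chromosome 3, gave nearly the same difference (-0.60). Gstm4 had 6.91 on HFD-IgG and 10.6 on standard diet (-0.62), and Gstm3 had 12.3 on HFD-IgG and 18.2 on standard diet (-0.57) by its brightest probe but 0.77 by its other, so its direction depends on the probe. Gstm5 went the other way, with 2.06 on HFD-IgG and 1.26 on standard diet (0.71).

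The theta class was divided in the same manner. Gstt1, which acts on small halogenated compounds, had 121 on HFD-IgG and 68.6 on standard diet (0.82), Gstt3 had 16.3 on HFD-IgG and 13.2 on standard diet (0.31), and Gstt2 had 10.8 on HFD-IgG and 18.3 on standard diet (-0.76). Gstt1 dropped to 0.06 with normexp correction and Gstt3 turned to -0.37.

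Gstp1 and Gstp2, the pi-class genes among the members, were lower on HFD-IgG than on standard diet. Gstp1 had 84.0 on HFD-IgG and 141 on standard diet (-0.75), and Gstp2 had 383 on HFD-IgG and 437 on standard diet (-0.19, within the scanner error). The second probes of these genes read -0.90 for Gstp1 and -0.87 for Gstp2.

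None of the remaining glutathione enzymes was called. Gsto1, an omega enzyme that reduces dehydroascorbate and methylated arsenic, had 49.9 on HFD-IgG and 61.5 on standard diet (-0.30). Gstz1, an isomerase of tyrosine breakdown, had 132 on HFD-IgG and 104 on standard diet (0.35, but -0.31 with normexp), and Gstk1 of mitochondria and peroxisomes had 48.7 on HFD-IgG and 36.1 on standard diet (0.43). Of the membrane-bound enzymes, Mgst1 of the endoplasmic reticulum and outer mitochondrial membrane had 343 on HFD-IgG and 377 on standard diet (-0.14). Mgst3 lay just inside 2-fold by its brightest probe, with 3.95 on HFD-IgG and 1.99 on standard diet (0.99), and just outside by the other (1.12). Mgst2, which can make leukotriene C4, was well above background on HFD-IgG alone, at 0.0503, and at least 1.76-fold higher there than on standard diet.

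The Ugt family was lower on HFD-IgG than on standard diet in 11 of 13 members, with a median of -0.49. Of the 12 measured on both arrays, 8 were lower by more than the scanner error and 1 was higher by more than it, against 31.8% lower and 27.6% higher of all gene names. Bright gene names leaned lower in general: above the 75th percentile on either array 5407 of 8641 were below 0, with a median of -0.10. In that range 10 of 12 Ugt members were below 0, with a median of -0.41. Ugt1a10 had 0.486 on HFD-IgG and 1.96 on standard diet, a 4.03-fold difference (-2.01), and its second probe, 60 bases upstream, was well above background on standard diet but not on HFD-IgG, with a log2 difference of -0.84 or lower. Ugt1a6a, which glucuronidates simple phenols, had 141 on HFD-IgG and 206 on standard diet (-0.55).

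The Ugt1 probes need care, because Ugt1 transcripts start from separate first exons and share their last ones. The file places the probes of Ugt1a6a far apart: the brightest lies 79.7 kilobases beyond another whose difference was 0.06, with 3.09 on HFD-IgG and 2.95 on standard diet. The probe lying 1.02 kilobases further on, read 0.17, with 0.113 on HFD-IgG and 0.10 on standard diet. A probe in the shared part would read all Ugt1 transcripts together, so the Ugt1a6a name and its difference of -0.55 may not belong to Ugt1a6a alone.

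In the Ugt2 subfamily, which glucuronidates steroids and many drugs and whose 9 probes lie in 1 cluster on chromosome 5, 8 of 9 were below 0 with a median of -0.49. Ugt2b35 had 4.55 on HFD-IgG and 7.93 on standard diet (-0.80), and Ugt2b1 had 4.86 on HFD-IgG and 7.53 on standard diet (-0.63). The 2 with the brightest probes were Ugt2b38, with 124 on HFD-IgG and 157 on standard diet (-0.34), and Ugt2b5, with 57.4 on HFD-IgG and 80.8 on standard diet (-0.49). Ugt2b34 was the exception at 0.14. The Ugt2b37 and Ugt2b5 probes matched in 46 of 55 aligned bases, so their readings of -0.50 and -0.49 may not be separate.

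Ugt3 enzymes, which transfer other sugars, were split, with Ugt3a1 at 16.2 on HFD-IgG and 12.3 on standard diet (0.39) and Ugt3a2 at 38.7 on HFD-IgG and 45.4 on standard diet (-0.23). The median of all Ugt members together stayed below 0 with every alternative tried, from -0.34 for the mean over probes to -1.02 with normexp. Under normexp, all gene names shifted to a median of 0.48 and those above the 75th percentile to -0.54.

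The anti-VLA-4 array was set against HFD-IgG within the high-fat diet, where antibody and slide differ together and cannot be told apart. Of the 44 members compared 0 were at least 2-fold higher and 2 were at least 2-fold lower, Mgst2 and Sult2b1. Background shares were 1.9% higher and 16.5% lower over all gene names, and 0.806% and 1.3% over those above the 75th percentile. Both called members were bounds: Mgst2 was well above background on HFD-IgG at 0.0503 but not on anti-VLA-4 (at least 2.24-fold lower), and Sult2b1 was at 0.0615 on HFD-IgG and likewise not well above background on anti-VLA-4 (at least 2.74-fold lower). On the log2 scale these bounds, -1.17 for Mgst2 and -1.46 for Sult2b1, lay within their scanner error of 1.47. Neither reached 2-fold with quantile scaling or with normexp, and Mgst2 did not with cyclic loess either. The members' median was 0.05, against -0.06 for all gene names.

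The Ugt family was higher throughout in this comparison. All 13 members were higher on anti-VLA-4 than on HFD-IgG, by 0.06 to 0.58 with a median of 0.28, and 8 of the 12 measured on both arrays were higher by more than the scanner error while 0 were lower by more than it. The other member, Ugt2a1, was a dim bound of 0.23 with a scanner error of 0.47. For all gene names 25.2% were higher and 30.1% lower by more than the scanner error. Of all gene names compared, 9561 of 22551 were above 0 and 12535 below, and above the 75th percentile 4221 of 8558 were above and 4337 below. The direction was the same for all 13 with quantile scaling, cyclic loess scaling and the median of bright probes. The last moves all gene names alike and took the median of all members from 0.05 to 0.03, so it could turn none of these signs. With normexp 12 were above 0 and 0 below, but there the median of all members also rose, to 0.19, against -0.14 for all gene names. The Ugt differences are small, with 0 of the 12 measured on both arrays beyond 1.5-fold. No replicate tells whether they exceed the spread between preparations.

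Ugt2b1 differed most within the family, with 7.27 on anti-VLA-4 against 4.86 on HFD-IgG (0.58). Ugt1a6a had 182 on anti-VLA-4 against 141 on HFD-IgG (0.36), Ugt3a2 had 49.7 against 38.7 (0.36) and Ugt2b35 had 5.79 against 4.55 (0.35) on the same arrays. Ugt2b38 had 152 on anti-VLA-4 against 124 on HFD-IgG (0.29), Ugt2b5 67 against 57.4 (0.22) and Ugt3a1 16.9 against 16.2 (0.06, within the scanner error). Ugt1a10 stood at 0.591 on anti-VLA-4 and 0.486 on HFD-IgG (0.28), below its standard-diet level of 1.96 on both. The Ugt differences of opposite sign in HFD-IgG over standard diet and here both contain the HFD-IgG array, so the values are given side by side and no relation is drawn between them.

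Both Gstp members were also lower on anti-VLA-4 than on HFD-IgG. Gstp1 had 54.2 on anti-VLA-4 against 84.0 on HFD-IgG (-0.63), and Gstp2 had 281 on anti-VLA-4 against 383 on HFD-IgG (-0.45). Second probes read -0.79 for Gstp1 and -0.80 for Gstp2. All 4 probes were lowest on anti-VLA-4, between on HFD-IgG and highest on standard diet. The brightest Gstp1 probe and the second Gstp2 probe matched in 30 of 35 aligned bases. How much signal the 4 probes share was not tested, so their readings may not be separate.

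**Figure D3:**
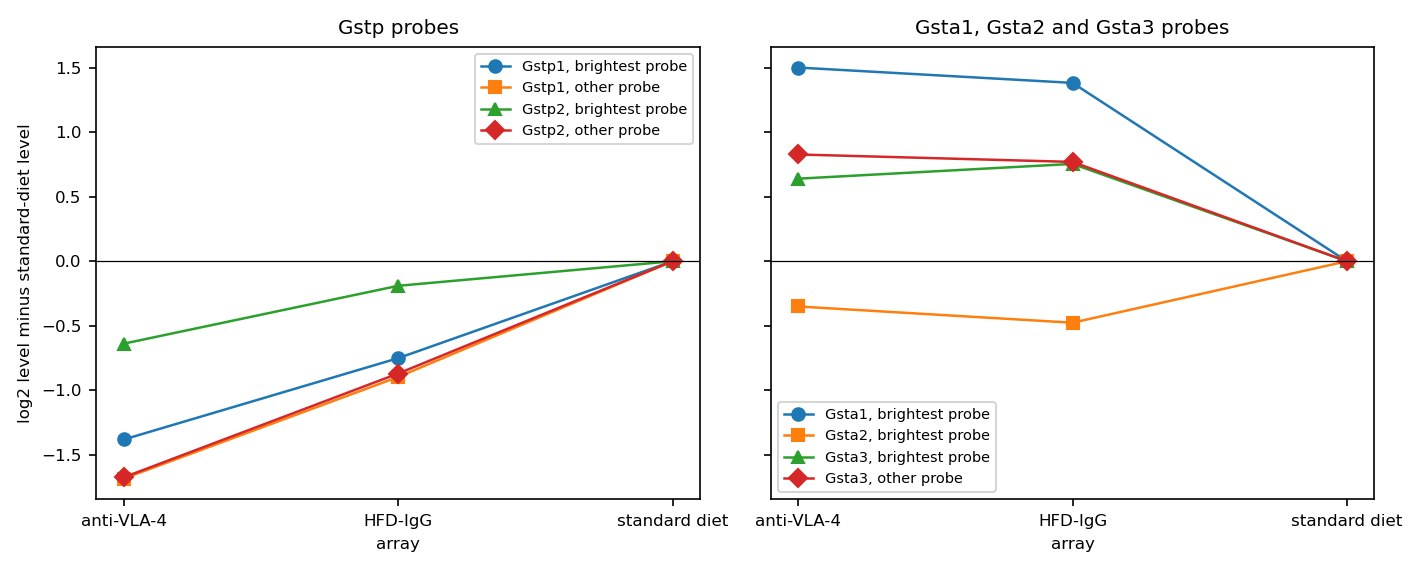
Log2 level relative to the standard-diet array (vertical axis) on each array (horizontal axis) for every probe of Gstp1 and Gstp2 (left) and of Gsta1, Gsta2 and Gsta3 (right); lines join the readings of 1 probe. The 4 Gstp probes are lowest on anti-VLA-4, and Gsta1 and Gsta3 lie above 0 on both high-fat-diet arrays while Gsta2 lies below.

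Other glutathione and sulfate enzymes differed little between the arrays of mice on the high-fat diet. The soluble glutathione S-transferases had a median of -0.04 with 13 of 20 below 0, which turned to 0.12 with normexp, and 14 of the 20 measured on both arrays lay within the scanner error. Among them were Gsta1 with 7.96 on anti-VLA-4 and 7.33 on HFD-IgG (0.12), Gsta3 with 274 and 297 (-0.11) and Gstt1 with 130 and 121 (0.10) on those arrays. Sult1c2 had 2.0 on anti-VLA-4 and 2.02 on HFD-IgG (-0.02), and Sult5a1 had 2.32 on anti-VLA-4 and 2.86 on HFD-IgG (-0.30).

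Dim probes gave the largest positive values. Gsto2 had 0.0589 on anti-VLA-4 and 0.0324 on HFD-IgG (0.86, scanner error 0.37), and Sult4a1 had 0.193 on anti-VLA-4 and 0.117 on HFD-IgG (0.73, error 0.23). Both turned below 0 with normexp, to -0.34 for Gsto2 and -0.17 for Sult4a1. Sult1d1, a brighter probe, had 6.64 on anti-VLA-4 and 5.0 on HFD-IgG (0.41), and its second probe read 0.51.

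The anti-VLA-4 array was also set against standard diet, where diet, injection, antibody and slide differ together and cannot be told apart. Of the 42 members compared, 4 were at least 2-fold higher, Gsta1, Gsto2, Sult1c2 and Sult5a1, and 2 were at least 2-fold lower, Gstp1 and Ugt1a10. Over all gene names 7.99% were called higher and 3.39% lower, and over those above the 75th percentile 3.34% and 1.55%. Gstp1, which stayed within 2-fold in the other comparisons, had 54.2 on anti-VLA-4 against 141 on standard diet, 2.61-fold lower (-1.38). Its second probe and that of Gstp2 read -1.69 and -1.68. The brightest Gstp2 probe read -0.64.

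**Figure D4:**
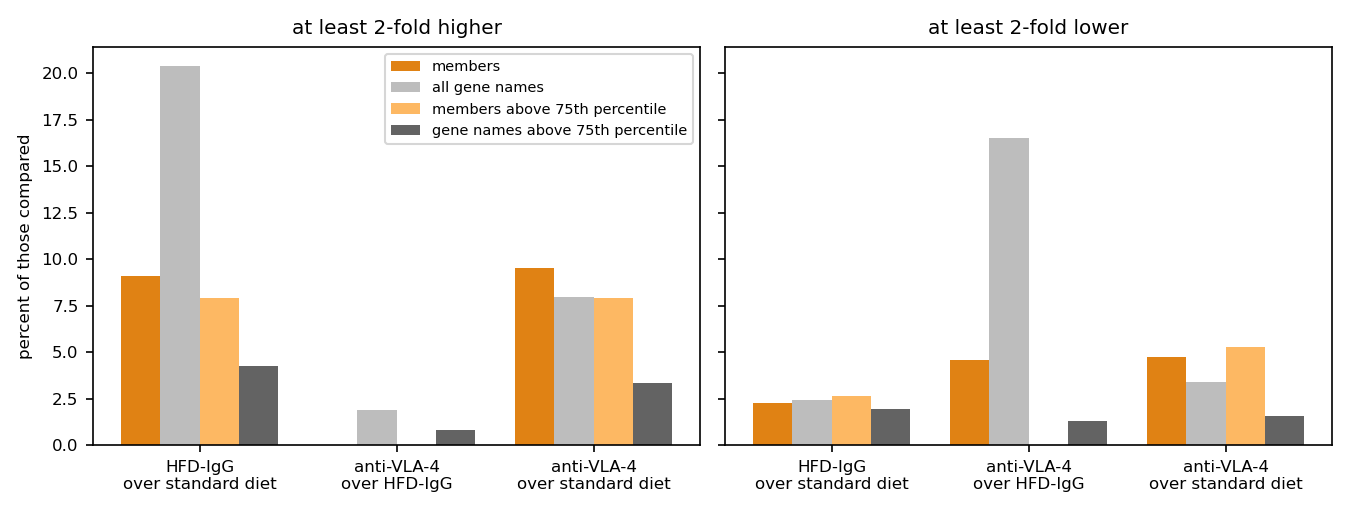
Percent of those compared (vertical axis, from 0) that were at least 2-fold higher (left) or lower (right) in each comparison (horizontal axis), for members and for all gene names, over all levels and above the 75th percentile on either array. In HFD-IgG over standard diet 9.09% of members were called higher against 20.4% of all gene names, and above the 75th percentile 7.89% against 4.27%.

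Sult1c2 was 3.50-fold higher on anti-VLA-4 than on standard diet, Sult5a1 3.16-fold and Gsta1 2.83-fold, while Ugt1a10 was 3.32-fold lower. Gsto2 was well above background on anti-VLA-4 but not on standard diet and was at least 2.26-fold higher, though not with quantile scaling (0.80). Gstt1 (0.93) and Mgst3 (0.96) lay just under 2-fold. The Ugt median was -0.05 with 5 members above and 8 below 0, and turned to 0.03 with cyclic loess, so no direction is given for the family. Of the 7 sulfotransferases compared, 6 were above 0 and 6 were higher by more than the scanner error. Of all gene names measured on both arrays, 46.4% were above 0 and 28.7% above that error. The sulfotransferase median of 0.73 was the reading of Sult4a1, a dim probe at 0.193 on anti-VLA-4 and 0.117 on standard diet. The second Sult4a1 probe was not well above background on any array. Sult1e1 was dimmer still, at 0.0658 on anti-VLA-4 and 0.0451 on standard diet.

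Genes that work around these enzymes were read from lists. Of 6 genes in a list named for UDP-glucuronate supply, which also holds Gusb and Slc35b1, 0 were called in any comparison. Their median was 0.24 for anti-VLA-4 over HFD-IgG, against -0.13 for HFD-IgG over standard diet. In anti-VLA-4 over HFD-IgG they ranged from -0.08 for Ugdh to 0.75 for Slc35b1. Of 13 genes of glutathione supply, 10 were compared between HFD-IgG and standard diet and 0 were called. Chac1, which breaks glutathione down, was the 1 of 10 called in anti-VLA-4 over HFD-IgG, where 1.9% of all gene names were called higher: it had 1.63 on anti-VLA-4, 0.290 on HFD-IgG and 0.187 on standard diet, 5.62-fold higher in anti-VLA-4 than in HFD-IgG.

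For sulfation, 2 of 10 genes of PAPS supply and sulfate handling were called higher on HFD-IgG than on standard diet, close to the 20.4% of all gene names, so the count is no result about sulfation. Papss1, a synthase of the donor PAPS, had 0.637 on anti-VLA-4, 0.788 on HFD-IgG and 0.331 on standard diet (2.38-fold higher in HFD-IgG). The sulfate carrier Slc13a1 was well above background on HFD-IgG alone, at 0.0852, at least 3.31-fold higher than on standard diet and at least 3.8-fold lower on anti-VLA-4. The median of the list was -0.12 between these arrays.

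Among 17 measured genes of other conjugation and detoxification steps, 2 were called higher on HFD-IgG than on standard diet, and both are methyltransferases. The share was 20.4% over all gene names and 4.27% over those above the 75th percentile, where all of the 17 but Nqo1 stood. Inmt, which methylates indole amines, had 104 on anti-VLA-4, 119 on HFD-IgG and 42.3 on standard diet, and Hnmt, which methylates histamine, had 6.06, 5.94 and 2.63 on the same arrays in that order. The arsenic methyltransferase As3mt had 3.27 on anti-VLA-4 and 6.77 on standard diet, 2.07-fold lower.

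Of 15 receptors and regulators of these genes 0 were called, and their median was -0.29 in HFD-IgG over standard diet and 0.17 in anti-VLA-4 over HFD-IgG. Nr1i3, the xenobiotic receptor CAR, had 19.2 on anti-VLA-4, 10.8 on HFD-IgG and 19.5 on standard diet. Nr1i2, the receptor PXR, had 4.95 on anti-VLA-4, 3.58 on HFD-IgG and 6.43 on standard diet, and both were chosen after their values were seen. In conjugate transport, the uptake carrier Slco1a1 had 2.68 on anti-VLA-4, 0.919 on HFD-IgG and 4.66 on standard diet, 5.07-fold lower in HFD-IgG than in standard diet and 2.91-fold higher in anti-VLA-4 than in HFD-IgG. The export pump Abcc4 was 2.18-fold higher in HFD-IgG than in standard diet, at levels of 0.133 and 0.0609.

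The promoters of 44 of the 49 members were found in RefSeq (build GRCm38.p6, 250 bases before to 50 after the start) and were searched on both strands for 3 motifs. The antioxidant response element core TGACNNNGC was present in 4 of 44, Gsta3, Gstm5, Gstm7 and Mgst1, against 14.0% of 27025 genes with a promoter in the table. The xenobiotic response element core GCGTG, bound by the aryl hydrocarbon receptor, was present in 9 of 44 against 35.2%. The HNF1 motif was in 0 of 44 against 0.0111%, and no match means only that the motif's letters are not in the window.

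Gsta1 and Gsta2, which read in opposite directions on HFD-IgG, both held the GCGTG core close to the annotated start. The 35 bases that end in it, with the core in capitals, were identical at 32 positions. They lie at chr9:78230637-78230671 on the plus strand for Gsta1 and chr9:78347148-78347182 on the minus strand for Gsta2, in build GRCm38.p6.
Gsta1 promoter: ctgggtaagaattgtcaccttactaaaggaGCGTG
Gsta2 promoter: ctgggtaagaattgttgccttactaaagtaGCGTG

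Where a member had several measured probes, they gave opposite signs for 4 of 16 members in HFD-IgG over standard diet (Gstm3, Sult1d1, Ugt1a6a and Ugt3a2), for 3 of 16 with the antibody within the high-fat diet (Gsta3, Gstm1 and Gstm6) and for 2 of 17 between anti-VLA-4 and standard diet (Gstm3 and Ugt1a6a). In 0 cases did the opposite readings each reach 2-fold. Calls over all gene names also moved with the base make-up of the probe: in HFD-IgG over standard diet 8.25% of gene names with a probe of at most 40% purines were called higher, against 46.9% of those above 60%. Member probes held 30% to 70% purines with a median of 48.3%, close to the 50% of all, and the part of this in the results was not tested. Sult5a1 has a probe of 50% purines, Sult1c2 51.7%, Gsta1 46.7% and Ugt1a10 40%, while the Sult2b1 probe has 60% and the Papss1 probe 61.7%.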

How the data were processed

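Hepatocyte RNA was measured on 3 single-colour arrays, 1 per group. The spot intensity values (processed signal, after background subtraction and detrending) were deposited as scanner output, which the submitters' processing notes credit to Agilent Feature Extraction 11.0.1.1. The software's flags, among them the one for spots well above background, are other values, per the file headers. A ratio fills the deposited value table: each value equals the processed signal over the array's 75th percentile, with a largest relative deviation of 2e-08 over 23206 spots. Its scale and centring are thereby known, and its column medians are 0.81 for anti-VLA-4, 0.80 for HFD-IgG and 0.79 for standard diet. Probe positions are on build mm9, as in the files.

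The values reported are log2 ratios of processed signal to the 75th percentile of that array's 43020 non-control spots (514 for anti-VLA-4, 500.3 for HFD-IgG, 574 for standard diet). Spots that the scanner marked as non-uniform or as population outliers were dropped (1, 2 and 0 member spots on these arrays in that order), spots of a probe averaged, and each gene name read from its probe of highest mean log2 value. All 49 members matched a RefSeq accession of the same symbol. A fold is a bound if the lower array did not measure the probe above background, computed against that probe's signal or the array's lowest signal well above background, whichever is higher. With 1 array per group no test was possible; members at least 2-fold different were counted and set beside all gene names.

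Members and lists were chosen with earlier results of these data known. Named members were those at least 2-fold different in a comparison and the 2 with the highest mean in each family, and of each list the members at least 2-fold different. Gsta4, Gstk1, Gstm4, Gstm5, Gstt2, Sult1d1, Sult1e1, Ugt2a and Ugt2b members other than Ugt2b38 and Ugt2b5, Nr1i2 and Nr1i3 were named after their values were seen. The steps were tested on simulated data. Quantile, cyclic loess and bright-probe scaling, normexp background correction with offset 50, other filters on dim probes, the mean over probes, flagged spots kept, the deposited table and thresholds of 1.5-fold and 3-fold were alternatives; probes of at most 50% purines and genes above the 75th percentile were added after seeing the data. Software was R 4.3.3 with limma 3.58.1, and Python 3.11.15 with pandas 2.3.3, numpy 2.4.6 and matplotlib 3.10.9.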

Additional observations from a re-analysis of the deposited data

How the results depend on the processing

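Of 819 recomputed differences of named members, 732 stayed within the scanner error of the reported value and 87 moved by more. Of the 87, 66 came with normexp, and 0 differences of at least 2-fold turned sign. Part of the 732 could not move, because 4 settings leave a member's value as it is. These were the deposited table (72 values), members well above background on all 3 arrays (72), probes of at most 50% purines (54) and genes above the 75th percentile (68). Further settings could hardly move a value. The median of bright probes (79 values) subtracts 1 nearly equal constant per array, -0.36 for anti-VLA-4, -0.38 for HFD-IgG and -0.41 for standard diet. Keeping flagged spots (79) touches few member spots, and dropping the filter on dim probes (76 of 79 unmoved) changes only bounds. Among differences beyond 0.2, signs turned for 5 in HFD-IgG over standard diet (Gsta3, Gstt3, Gstz1 and Ugt3a1 under normexp and Gstm3 under the mean over probes), 2 between anti-VLA-4 and HFD-IgG and 2 in anti-VLA-4 over standard diet. The cause was not tested. Sult1c2, Sult5a1 and Ugt1a10 kept at least 2-fold under all alternatives that gave a value, against standard diet on both high-fat-diet arrays.

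Each changed count is given with the share of all gene names called under the same setting in brackets. In HFD-IgG over standard diet, the 4 members called higher (20.4%) became 7 with normexp (40.7%), 10 at 1.5-fold (27.9%), 2 at 3-fold (13.0%) and 2 of 30 with probes of at most 50% purines (11%). The 1 called lower (2.42%) became 2 with quantile scaling (12.2%), 2 with cyclic loess (4.09%), 15 with normexp (3.91%) and 7 at 1.5-fold (7.78%). The median of -0.04 became -0.63 with normexp.

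In anti-VLA-4 over HFD-IgG, 0 called higher (1.9%) became 3 with quantile scaling (10.9%), 1 with cyclic loess (3.16%) and 2 at 1.5-fold (7.11%). The 2 called lower (16.5%) became 1 with cyclic loess (13.8%), 4 of 49 with no filter on dim probes (19.9%), and 0 with quantile scaling (9.1%), normexp (0.665%), members well above background on all 3 arrays (4.31%), the deposited table (4.34%), 3-fold (9.67%), probes of at most 50% purines (6.13%) and genes above the 75th percentile (1.3%).

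In anti-VLA-4 over standard diet, the 4 called higher (7.99%) became 7 with normexp (30.3%), 9 at 1.5-fold (16.4%) and 2 at 3-fold (3.66%). The 2 called lower (3.39%) became 7 with normexp (2.07%), 7 at 1.5-fold (9.42%), 1 at 3-fold (1.29%) and 1 of 30 with probes of at most 50% purines (3.35%). The median of 0.04 became -0.28 with normexp.

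No paired analysis was possible because each group has 1 array, which also leaves no replicate to omit. The number of arrays limits the precision, and members not well above background have only a bound.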

Other observations

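Beyond the names chosen, 7 gene symbols of these families sat on the array under other names, with 10 probes matched through their accession. The sulfotransferase Sult2a8 had a level of 78.2 on anti-VLA-4, 71.0 on HFD-IgG and 60.7 on standard diet, differing by 0.23 (log2) in HFD-IgG over standard diet and 0.14 in anti-VLA-4 over HFD-IgG. Gstp3, a further pi-class gene, had 0.883 on anti-VLA-4, 0.819 on HFD-IgG and 0.627 on standard diet, so it was higher on both high-fat-diet arrays, whereas all Gstp1 and Gstp2 probes were lower there. Sult2a2, Sult2a4, Sult3a2 and Sult6b2 stood well above background on HFD-IgG alone, as Sult2b1, Mgst2 and Slc13a1 were, at levels of 0.0477 to 0.0889. For Sult2a2 and Sult2a4 a second probe was not well above background on any array. HFD-IgG also had the largest share of spots well above background, 66.5% against 62.4% on anti-VLA-4 and 57.3% on standard diet. Sult2a6 was not well above background on any array.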
